A study of Rattus norvegicus with 4 samples.

Results

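The transcripts described here are those of genes that carry cells through the division cycle: the cyclins, their kinases and the inhibitors of these kinases, the enzymes of DNA replication, and the machinery of mitosis. They were measured in cultured ventricular myocytes of newborn rats, heart muscle cells that beat but divide little, grown either on fibronectin, a glycoprotein of the extracellular matrix bound by integrins, or in uncoated dishes. By its title the study asks about hypertrophy, the growth of these cells in size. Of 48 listed genes, 42 had at least 1 probe set annotated with that gene alone, and each gene was represented by its probe set of highest mean signal over all 4 arrays. They are 42 of 10411 genes named by probe sets of 1 symbol. The fibronectin group had 2 arrays (fibronectin replicates 1 and 2) and the control group had 2 (control replicates 1 and 2). Cells of both groups were kept for 24 h with 10% serum and then for 48 h without serum. The labels do not tell whether arrays of 1 group represent separate cultures, and the p-values therefore reflect only the spread between these samples, which could be technical.

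A dividing cell passes from G1, in which D-type and E-type cyclins activate their kinases, into S phase, in which the MCM helicase opens DNA and polymerases copy it. It then passes through G2 into mitosis, driven by Cdk1 with B-type cyclins and ended when the anaphase-promoting complex marks those cyclins for destruction. Heart muscle cells largely leave this cycle soon after birth, and inhibitors such as the products of Cdkn1a, Cdkn1b and Cdkn1c hold the kinases in check. Genes of G2 and mitosis often carry CCAAT boxes and a CHR element (cell cycle genes homology region) near their start, whereas genes of S phase often carry sites for E2F factors.

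The promoters below are picked examples, from genes that differ in how they were measured on fibronectin. Ccnb2 (cyclin B2, chr8:79981609-79981908, minus strand), Birc5 (survivin, chr10:103571896-103572195, plus strand), Cdk1 (the mitotic kinase, chr20:19265043-19265342, plus strand) and Cdkn3 (a phosphatase of cyclin-dependent kinases, chr15:22502136-22502435, plus strand) gave higher signals on each fibronectin array than on either control. Cks1b (a small subunit of cyclin-kinase complexes, chr2:177135284-177135583, minus strand) had lower values on both, and Mcm5 (a helicase subunit, chr19:13488563-13488862, plus strand) overlapped between the groups. Each sequence is the RefSeq GRCr8 window from 250 bases before to 50 bases after the gene's start, read 5′ to 3′ on the gene's strand. Capitals mark matches, on either strand, to the CCAAT box (CCAAT), the CHR (TTTGAA) or the E2F forms TTTCCCGC, TTTCGCGC, TTTGCCGC and TTTGGCGC.
Ccnb2: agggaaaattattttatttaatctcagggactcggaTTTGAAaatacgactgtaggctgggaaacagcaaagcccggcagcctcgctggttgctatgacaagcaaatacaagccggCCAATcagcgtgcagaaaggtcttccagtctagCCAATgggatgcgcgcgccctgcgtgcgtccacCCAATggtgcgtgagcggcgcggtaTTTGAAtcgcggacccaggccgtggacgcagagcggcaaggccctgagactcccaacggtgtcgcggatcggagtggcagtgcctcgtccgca
Birc5: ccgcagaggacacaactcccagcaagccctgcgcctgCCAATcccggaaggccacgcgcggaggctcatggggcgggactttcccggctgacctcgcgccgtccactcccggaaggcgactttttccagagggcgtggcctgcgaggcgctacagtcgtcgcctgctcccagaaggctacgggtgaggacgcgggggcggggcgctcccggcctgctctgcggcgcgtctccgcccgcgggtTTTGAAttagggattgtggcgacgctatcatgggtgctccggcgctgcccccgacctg
Cdk1: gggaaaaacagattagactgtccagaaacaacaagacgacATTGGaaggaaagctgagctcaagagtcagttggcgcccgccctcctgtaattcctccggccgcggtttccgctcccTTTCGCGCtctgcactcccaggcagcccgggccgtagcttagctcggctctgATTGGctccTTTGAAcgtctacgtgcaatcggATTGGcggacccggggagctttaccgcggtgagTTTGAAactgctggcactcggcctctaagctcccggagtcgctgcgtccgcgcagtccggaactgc
Cdkn3: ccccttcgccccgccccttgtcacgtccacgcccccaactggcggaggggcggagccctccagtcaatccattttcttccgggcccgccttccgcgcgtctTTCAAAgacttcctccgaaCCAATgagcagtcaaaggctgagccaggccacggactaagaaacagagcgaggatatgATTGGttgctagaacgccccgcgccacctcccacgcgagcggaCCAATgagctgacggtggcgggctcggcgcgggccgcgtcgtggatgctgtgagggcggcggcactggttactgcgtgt
Cks1b: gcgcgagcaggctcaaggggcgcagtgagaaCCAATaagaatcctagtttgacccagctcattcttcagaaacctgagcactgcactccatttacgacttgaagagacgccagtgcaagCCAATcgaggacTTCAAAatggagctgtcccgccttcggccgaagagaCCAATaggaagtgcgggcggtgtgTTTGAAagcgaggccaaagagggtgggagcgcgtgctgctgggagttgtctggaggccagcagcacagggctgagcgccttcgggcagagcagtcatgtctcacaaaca
Mcm5: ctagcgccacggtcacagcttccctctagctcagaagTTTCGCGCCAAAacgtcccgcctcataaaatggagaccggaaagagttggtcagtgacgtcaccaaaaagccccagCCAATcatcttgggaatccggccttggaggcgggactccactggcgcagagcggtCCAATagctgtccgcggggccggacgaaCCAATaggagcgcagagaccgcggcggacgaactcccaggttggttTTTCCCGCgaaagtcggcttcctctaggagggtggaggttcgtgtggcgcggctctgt

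A match to a motif is a description of these letters and not a bound site. In the Ccnb2 window CHR matches lay 43 and 214 bases before the start, with CCAAT boxes 68, 101 and 134 bases before it. Cks1b, lower on both fibronectin arrays, likewise had CHR matches at 59 and 119 bases and CCAAT boxes at 83, 131 and 219 bases. The CHR of Birc5 began 8 bases before the start. Cdk1 had CHR matches at 16 and 72 bases, CCAAT boxes at 49, 81 and 210 bases and an E2F form at 133 bases. Mcm5 had no CHR and 3 E2F matches, of which those at 213 and 209 bases overlapped each other. The windows of Rfc2 and Cdkn1a, also higher on both fibronectin arrays but not shown, held no match to any of these motifs.

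RefSeq promoter windows were matched for 40 of the 48 listed genes, whether or not they had a probe set. The remaining genes were Aurkb, Ccna2, Ccnd1, Ccnd2, Cdkn1c, Mcm4, Rrm2 and Ube2c. Among 15 windows of G2/M genes, 10 (66.7%) held a CHR, against 18.1% of 27457 windows of the same length over all genes. Among 14 windows of S-phase genes, 7 (50%) held an E2F form, against 2.25% of all windows, and 1 held a CHR. A CCAAT box was found in 12 of the G2/M windows (80.0%) and 8 of the S-phase windows (57.1%), against 37.7% of all windows. CHR matches were thus most frequent among genes of G2/M and E2F matches among genes of S phase. These motifs were picked because such genes are known to carry them, so the shares are a description and not an independent result.

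**Figure D1:**
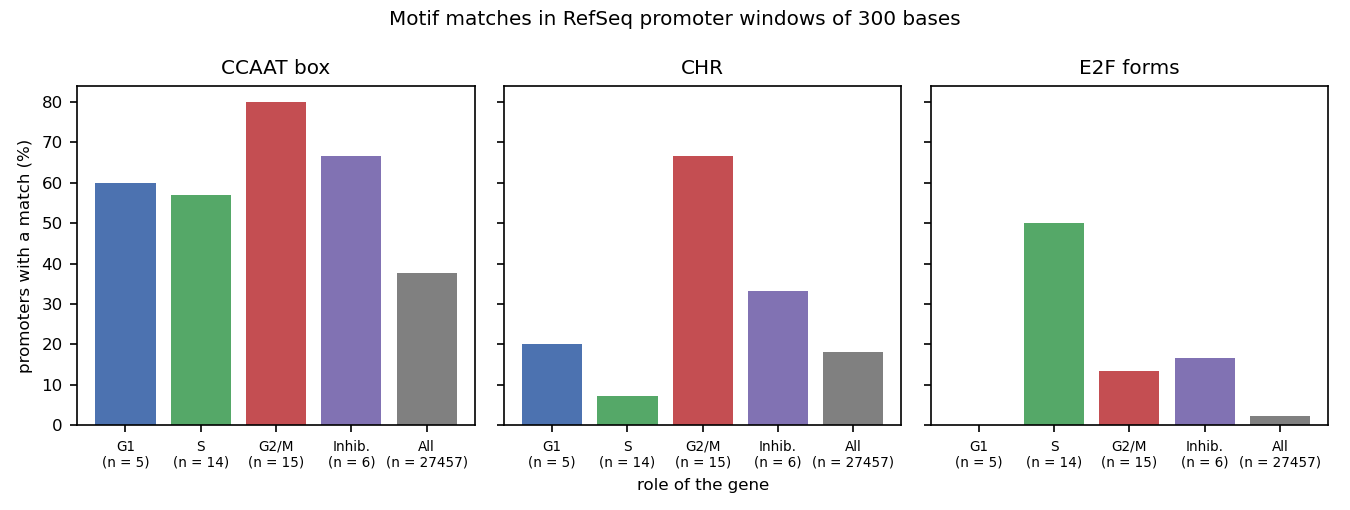
Share of RefSeq promoter windows (%, from 250 bases before to 50 after the start) with at least 1 match to a CCAAT box, a CHR or an E2F form, for genes of each role and for all genes (grey). The CHR share was highest in G2/M genes at 66.7% and the E2F share was highest in S-phase genes at 50%.

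The 4 arrays did not group by coating. Across the 9519 tested probe sets (not independent replicates), Pearson's r of the log2 signals was 0.792 between the fibronectin arrays and 0.911 between the controls, and fibronectin replicate 1 correlated with control replicate 1 at 0.904. Fibronectin replicate 2 stood apart from both controls, at 0.775 and 0.794. The 3′ to 5′ signal ratio of the Gapdh control transcript reached 6.02 and 3.52 with fibronectin, against 1.64 and 1.15 without coating, and that of beta-actin 13.03 and 6.29 with fibronectin, against 1.46 and 1.40 without. Hexokinase did not separate the groups, with ratios of 3.11 and 7 with fibronectin, against 3.77 and 4.12 without. The part of these ratios in the results was not tested. Cardiac myocyte markers were present on all arrays, with Tnnt2, cardiac troponin T, at log2 signals of 13.45 and 13.04 on fibronectin and 13.67 and 13.12 on uncoated dishes. Signals here are log2 of quantile-normalized intensity with a floor of 4.55, below which values were raised to it and have no order. In bulk RNA, fewer cells of a type and less RNA per cell cannot be told apart.

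Of the 42 genes, 36 had a representative probe set bright enough, by its mean over all 4 arrays, to be tested, and 6 were left out as dim. No gene passed limma's test at a Benjamini-Hochberg adjusted p of 0.05, as was so for all 9519 probe sets (0%), and the lowest adjusted p among the 36 genes was 0.719. At an unadjusted p under 0.05, 3 genes (Rfc2, Cdkn3 and Cdkn1a) were higher on fibronectin and 1 (Ccnd3) was lower, where 2.64% of all tested probe sets were higher and 3.87% were lower. Both fibronectin arrays lay above both controls for 10 of the 36 genes (27.8%), against 19.2% of all tested probe sets. They lay below both controls for 3 of the 36 (8.33%), against 19.1%. On the deposited scale the corresponding shares of all probe sets were 20.6% and 12.5%, with 9 and 3 of the genes. Non-overlapping differences of 1 or more in log2 units were found for 5 of the genes, all higher (Rfc2, Birc5, Cdkn3, Ccnb2 and Cdkn1a), where 3.39% of all probe sets were higher and 5.81% were lower by this measure. The median log2 difference of the 36 genes, fibronectin minus control, was 0.17, beside -0.02 over all tested probe sets. It was 0.29 without fibronectin replicate 2, where the lone fibronectin array lay above both controls for 21 of the 36 genes and below them for 6, against 37.2% and 34.5% of all probe sets. Without fibronectin replicate 1 the median was 0.03, and the lone fibronectin array lay above both controls for 13 of the 36 genes and below them for 13, against 38.7% and 41.6% of all probe sets. With 2 arrays against 2, an exact permutation test of a single gene cannot give a two-sided p below 0.33.

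By role, the medians of the G2/M and G1 genes lay on different sides of the controls. As deviations from each gene's control mean, the median of the 12 tested G2/M genes was 0.38 and 0.39 on fibronectin replicates 1 and 2, against -0.04 and 0.04 on control replicates 1 and 2. The median of the 6 tested G1 genes was -0.45 and -0.35 with fibronectin, against -0.04 and 0.04 without coating. The 13 tested S-phase genes had medians of 0.18 and 0.09 on fibronectin and 0.01 and -0.01 on uncoated dishes. Those of the 5 tested inhibitor and checkpoint genes were 0.03 and -0.04 on fibronectin and 0.07 and -0.07 on uncoated dishes. By this definition the 2 control deviations of a gene are equal and opposite. The control medians therefore mirror each other and do not measure the spread between the controls. Both fibronectin arrays exceeded both controls for 6 of 12 G2/M genes, 2 of 13 S-phase genes, 2 of 5 inhibitor and checkpoint genes and 0 of 6 G1 genes, against 19.2% of all tested probe sets. The genes lower on both fibronectin arrays were 3 of the 6 G1 genes and none of the other 30, against 19.1% of all tested probe sets. On the deposited scale Cks2, Ube2c and Ccne1 overlapped, whereas Mcm6 was higher and Cdk4 lower without overlap. The difference between the roles was not tested.

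**Figure D2:**
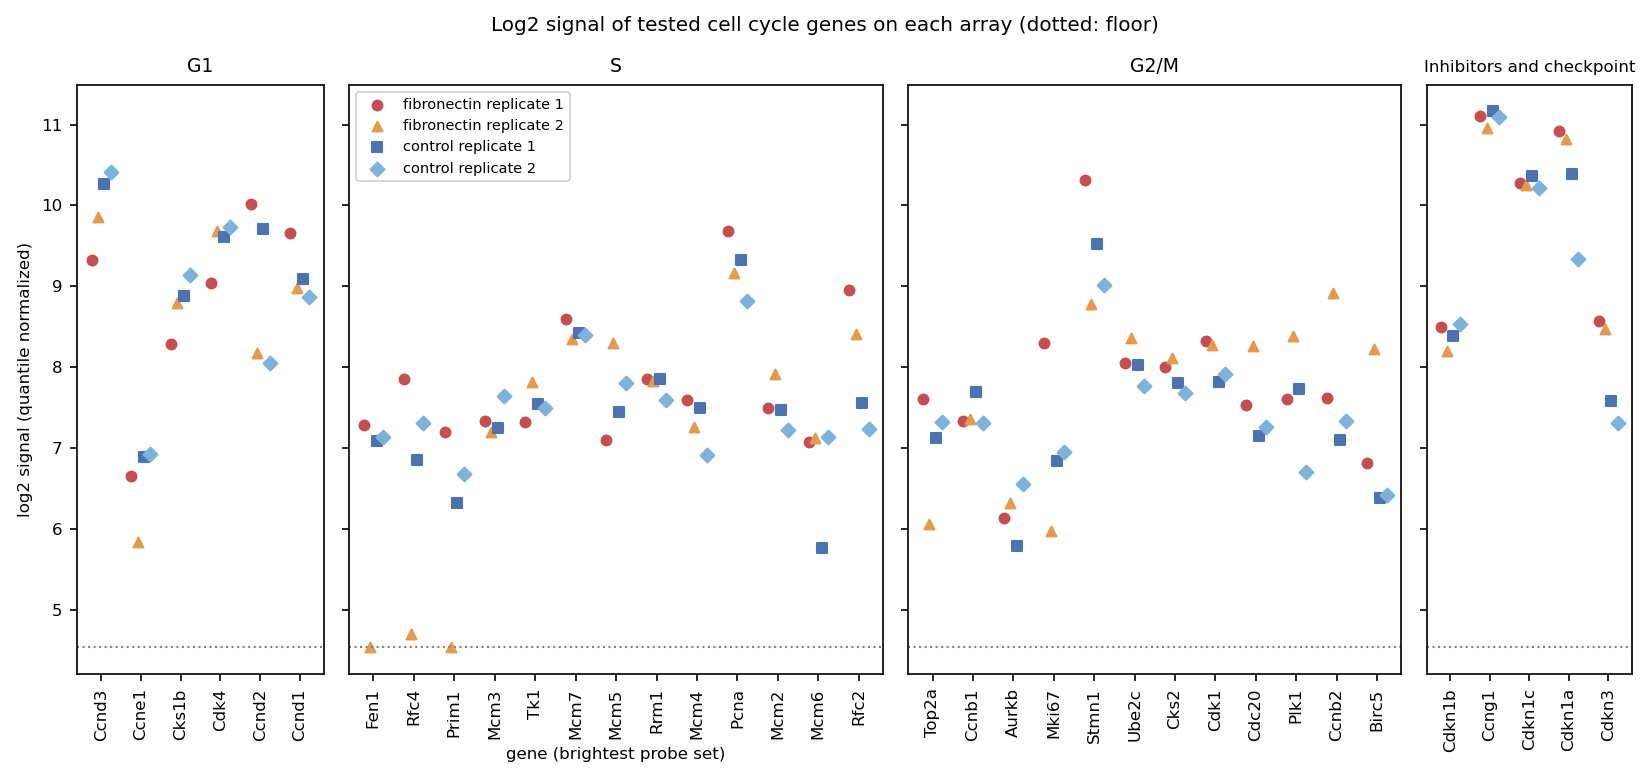
Log2 signal (quantile normalized, vertical axis) of the 36 tested genes on each of the 4 arrays, grouped by role and ordered within a role by the difference between the groups. Fibronectin arrays are a circle and a triangle, control arrays a square and a diamond, and the dotted line is the floor of 4.55, reached by fibronectin replicate 2 for Fen1 and Prim1.

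Among the G1 genes, Ccnd3, cyclin D3, a partner of Cdk4 and Cdk6, measured 9.33 and 9.86 on fibronectin, against 10.26 and 10.42 on uncoated dishes. Both fibronectin values lay below both control values, and the mean was 1.67-fold lower on fibronectin. The log2 difference was -0.74 (SE 0.31), with limma's Benjamini-Hochberg adjusted p = 0.754. Ccne1, cyclin E1, which drives entry into S phase with Cdk2, measured 6.66 and 5.84 on fibronectin and 6.90 and 6.93 on uncoated dishes. The controls nearly coincided and fibronectin replicate 2 was the lowest array, so that the difference of -0.66 (SE 0.57) became -0.26 without it and -1.07 without fibronectin replicate 1. Cks1b measured 8.29 and 8.80 on fibronectin and 8.88 and 9.15 on uncoated dishes, a difference of -0.47 (SE 0.35). Its fibronectin replicate 2 value was close to that of control replicate 1.

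The other D-type cyclins and their kinase overlapped between the groups. Ccnd1, cyclin D1, which growth factor and adhesion signals induce in many cell types, measured 9.66 and 8.99 on fibronectin and 9.10 and 8.87 on uncoated dishes. Ccnd2, cyclin D2, measured 10.02 and 8.18 on fibronectin and 9.71 and 8.05 on uncoated dishes. In Ccnd2 replicate 1 exceeded replicate 2 in both groups, by far more than the difference of 0.22 (SE 0.70) between the groups. Cdk4, the kinase that D-type cyclins activate, measured 9.04 and 9.69 on fibronectin and 9.62 and 9.73 on uncoated dishes, with only fibronectin replicate 1 apart.

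In S phase, the 6 subunits of the MCM helicase, which opens the double helix at replication origins, showed little separation of the groups. Mcm2 measured 7.49 and 7.92 on fibronectin and 7.48 and 7.23 on uncoated dishes, and it was the 1 subunit without overlap, by a narrow margin. Mcm3 measured 7.34 and 7.21 on fibronectin and 7.25 and 7.64 on uncoated dishes. Mcm4 measured 7.60 and 7.26 on fibronectin and 7.50 and 6.92 on uncoated dishes. These values interleaved for Mcm3 and Mcm4. Mcm5 measured 7.11 and 8.30 on fibronectin, the widest spread of the subunits on coated dishes, and 7.45 and 7.81 on uncoated dishes. Mcm6 measured 7.07 and 7.13 on fibronectin and 5.76 and 7.14 on uncoated dishes, so that its difference of 0.65 (SE 0.60) came from a low control replicate 1 and was -0.04 without that array. Mcm7 measured 8.59 and 8.35 on fibronectin and 8.42 and 8.40 on uncoated dishes. The subunits' differences ran from -0.17 to 0.65 with a median of 0.15.

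Replication clamp and clamp loader genes differed among themselves. Rfc2, a subunit of replication factor C, which loads the sliding clamp on DNA, measured 8.96 and 8.41 on fibronectin, against 7.57 and 7.24 on uncoated dishes. Both fibronectin values lay well above both controls, and the mean was 2.43-fold higher. The log2 difference of 1.28 (SE 0.39) was the highest among the 36 tested genes (limma, Benjamini-Hochberg adjusted p = 0.719), and it ran from 1.01 to 1.56 with 1 array left out. Rfc4, another subunit of the same complex, measured 7.86 and 4.71 on fibronectin and 6.86 and 7.31 on uncoated dishes. It was highest on fibronectin replicate 1 and near the floor on fibronectin replicate 2. Pcna, the sliding clamp itself, measured 9.69 and 9.16 on fibronectin and 9.33 and 8.81 on uncoated dishes. For Pcna replicate 1 exceeded replicate 2 by about the same amount in both groups, and the groups overlapped.

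Fen1, the nuclease that trims Okazaki fragments, and Prim1, the catalytic primase subunit, had their highest and lowest values on the same arrays as Rfc4. Fen1 measured 7.29 on fibronectin replicate 1 and was at the floor on fibronectin replicate 2, against 7.09 and 7.14 on uncoated dishes. Its difference of -1.20 (SE 0.89) was 0.17 without fibronectin replicate 2. It was -2.57 without fibronectin replicate 1, with limma's Benjamini-Hochberg adjusted p = 0.0453 in a fit that takes the lone array to vary like the controls. Prim1 measured 7.21 and the floor on fibronectin, against 6.32 and 6.68 on uncoated dishes. The deposited intensities of Fen1, Prim1 and Rfc4 on fibronectin replicate 2 were 17.5, 9.74 and 19.5, on an array whose values came in steps of 1.95. Among all tested probe sets, 3.23% were at the floor on that array alone, and of the 36 genes these were Fen1 and Prim1. Of the tested nucleotide synthesis genes, Rrm1, the large subunit of ribonucleotide reductase, differed by 0.12 (SE 0.37), and Tk1, thymidine kinase, by 0.05 (SE 0.41). Both overlapped between the groups, and Tyms, of the same pathway, was dim and is described with the dim genes.

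Among the tested G2/M genes, 10 of 12 had a positive difference and 6 were higher without overlap (50%, against 19.2% of all tested probe sets). On the deposited scale, where 20.6% of all probe sets were higher, Cks2 and Ube2c overlapped. Deposited Cks2 intensities were 309 and 230 on fibronectin, against 245 and 179 on uncoated dishes. Those of Ube2c were 322 and 271 on fibronectin, against 286 and 190. Of the G2/M genes left out as dim, Aurka was higher without overlap, and Bub1b and the brightest Kif2c probe set were lower without overlap. Ccnb2, cyclin B2, measured 7.63 and 8.92 on fibronectin, against 7.10 and 7.34 on uncoated dishes. Fibronectin replicate 2 was far above the other arrays, and fibronectin replicate 1 was only slightly above the controls. The log2 difference was 1.05 (SE 0.50), a 2.08-fold higher value (limma, Benjamini-Hochberg adjusted p = 0.761). It was 0.41 without fibronectin replicate 2 and 1.70 without fibronectin replicate 1. Birc5, survivin, a subunit of the complex that controls chromosome attachment, measured 6.82 and 8.22 on fibronectin and 6.38 and 6.43 on uncoated dishes. It had the same order of arrays as Ccnb2, with a difference of 1.11 (SE 0.58), or 0.41 without fibronectin replicate 2 and 1.82 without fibronectin replicate 1. Cdc20, the activator of the anaphase-promoting complex, measured 7.53 and 8.27 on fibronectin and 7.15 and 7.27 on uncoated dishes. It too was highest on fibronectin replicate 2, with a difference of 0.69 (SE 0.43).

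Cdk1, Cks2 and Ube2c had smaller differences with less spread. Cdk1 measured 8.32 and 8.28 on fibronectin and 7.82 and 7.92 on uncoated dishes. The arrays of each group lay close together, and the difference of 0.43 (SE 0.35) ran from 0.38 to 0.48 with 1 array left out. Cks2, a small subunit that binds Cdk1, measured 8.0 and 8.11 on fibronectin and 7.81 and 7.68 on uncoated dishes. Ube2c, the ubiquitin-conjugating enzyme of the anaphase-promoting complex, measured 8.06 and 8.37 on fibronectin and 8.03 and 7.77 on uncoated dishes. Each of the last 2 genes differed by 0.31, and Ube2c on fibronectin replicate 1 barely exceeded control replicate 1. Limma's Benjamini-Hochberg adjusted p was 0.796 for Cdk1, 0.844 for Cks2 and 0.845 for Ube2c.

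The proliferation markers in most common use did not separate the groups. Mki67, which encodes the Ki-67 antigen, measured 8.30 and 5.98 on fibronectin and 6.85 and 6.95 on uncoated dishes. The fibronectin arrays were the highest and the lowest of the 4, and the difference was 1.40 without fibronectin replicate 2 and -0.92 without fibronectin replicate 1. Top2a, the topoisomerase that untangles chromosomes, measured 7.61 and 6.06 on fibronectin and 7.13 and 7.33 on uncoated dishes, with the fibronectin arrays again on either side of the controls. Stmn1, the microtubule-destabilizing protein stathmin, likewise had the fibronectin arrays at both ends, with 10.32 and 8.79 on fibronectin and 9.53 and 9.01 on uncoated dishes. Thus Mki67, Top2a and Stmn1 were higher on fibronectin replicate 1 than on fibronectin replicate 2, whereas Ccnb2, Birc5 and Cdc20 were higher on fibronectin replicate 2. Plk1, a kinase of mitotic entry, measured 7.61 and 8.39 on fibronectin and 7.74 and 6.71 on uncoated dishes, and overlapped. Ccnb1, cyclin B1, measured 7.34 and 7.36 on fibronectin and 7.69 and 7.31 on uncoated dishes, a difference of -0.15 (SE 0.41). Aurkb, the kinase partner of survivin, differed by 0.05 (SE 0.66).

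**Figure D3:**
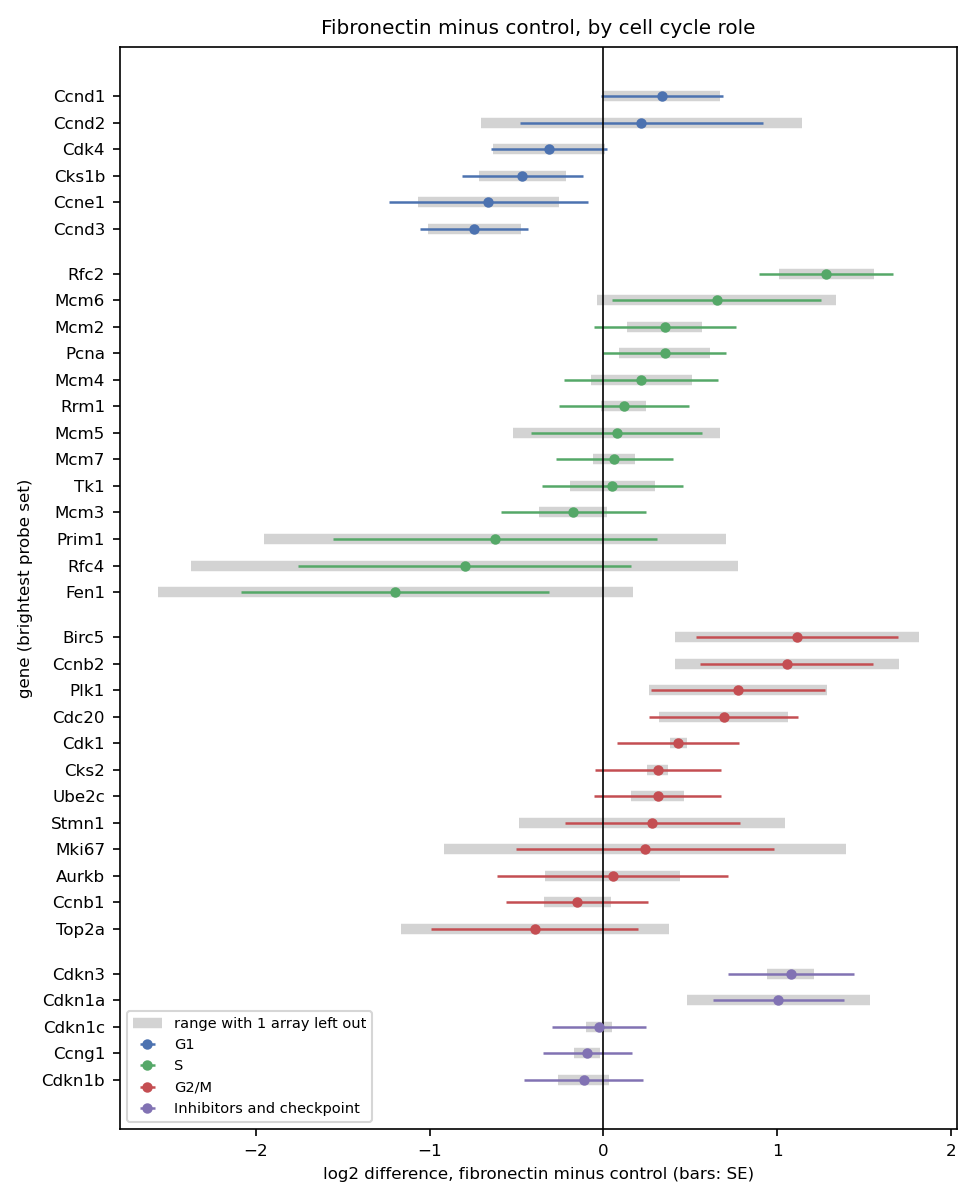
Log2 difference, fibronectin minus control (horizontal axis, points), with limma's SE (thin bars), for the 36 tested genes by role (colours); grey bars give the range with each of the 4 arrays left out in turn. Cdk1, Cks2, Cdkn3 and Rfc2 had grey bars above 0, whereas those of Mki67, Fen1, Rfc4 and Prim1 crossed 0.

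Among the inhibitors and checkpoint genes, Cdkn3 measured 8.58 and 8.48 on fibronectin, against 7.59 and 7.31 on uncoated dishes. The fibronectin arrays were close together and both lay above both controls, a 2.11-fold higher mean. The log2 difference was 1.08 (SE 0.36; limma, Benjamini-Hochberg adjusted p = 0.719), and it ran from 0.94 to 1.21 with 1 array left out. Cdkn1a, the inhibitor that p53 induces, measured 10.92 and 10.82 on fibronectin and 10.39 and 9.34 on uncoated dishes in its brightest probe set. The fibronectin arrays were close together and the controls far apart, so that the difference of 1.01 (SE 0.38) was 0.48 without control replicate 2 and 1.53 without control replicate 1. Limma's Benjamini-Hochberg adjusted p was 0.731 for this probe set. Cdkn1b, which inhibits Cdk2 complexes, measured 8.50 and 8.20 on fibronectin and 8.39 and 8.54 on uncoated dishes. Cdkn1c, an imprinted inhibitor, measured 10.28 and 10.25 on fibronectin and 10.37 and 10.22 on uncoated dishes, and Ccng1, cyclin G1, another p53 target, differed by -0.09 (SE 0.26). The values of these 3 genes overlapped between the groups, and the sign of Cdkn1c and Ccng1 turned on the deposited scale, at 0.13 and 0.16, and after median scaling of the arrays, at 0.08 and 0.11.

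The 6 genes left out as dim were described without a test. Pola1, the catalytic subunit of the polymerase that starts new strands, measured 6.10 on each fibronectin array and 4.60 and 4.55 on uncoated dishes, the second at the floor. Tyms, thymidylate synthase, measured 6.08 and 6.06 on fibronectin and 4.55 and 5.07 on uncoated dishes, the first of these at the floor. Aurka, a kinase of spindle poles, measured 6.75 and 5.84 on fibronectin and 5.51 and 4.91 on uncoated dishes. All 3 were above both controls on both fibronectin arrays, but dim in the controls, so the sizes of these differences are uncertain. Bub1b, a spindle checkpoint kinase, was below both controls on both fibronectin arrays, with 5.52 and 5.66 on fibronectin and 6.32 and 5.89 on uncoated dishes. Kif2c, a kinesin that takes microtubules apart, measured 6.25 and the floor on fibronectin, against 6.26 and 6.54 on uncoated dishes. It too was below both controls on both fibronectin arrays, though fibronectin replicate 1 nearly equalled control replicate 1. Cdkn2b, an inhibitor of Cdk4, was at the floor on fibronectin replicate 1 and at 6.75 on fibronectin replicate 2, between which the controls lay at 5.48 and 5.21.

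Of the 42 genes, 9 had more than 1 probe set, and these did not always have the same direction. For Cdkn1a the dimmer probe set was at the floor on fibronectin replicate 1 and measured 7.08 on fibronectin replicate 2, against 7.08 and 7.13 on uncoated dishes. Its difference was -1.29 (SE 0.86), opposite to that of the brightest probe set, and the mean of both probe sets differed by -0.14. For Ccnd1 the second probe set measured 7.31 and 6.42 on fibronectin and 7.53 and 7.33 on uncoated dishes, lower on both fibronectin arrays, where the brightest had overlapped with a positive difference. For Cdc20 the second tested probe set differed by -0.12 (SE 0.58), and 3 dim ones by 0.97, 0.74 and -0.11. For Cks1b both tested probe sets were lower, the dimmer by -1.54 (SE 0.79) with fibronectin replicate 2 at the floor and the others at 6.24 on fibronectin replicate 1 and 7.23 and 6.63 on uncoated dishes. Ccnb1 (-0.15 and -0.28), Top2a (-0.40 and -0.68) and Tk1 (0.05 and 0.33) had the same sign in both tested probe sets. Kif2c had 2 dim probe sets of opposite sign, at -0.998 and 1.26.

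**Figure D4:**
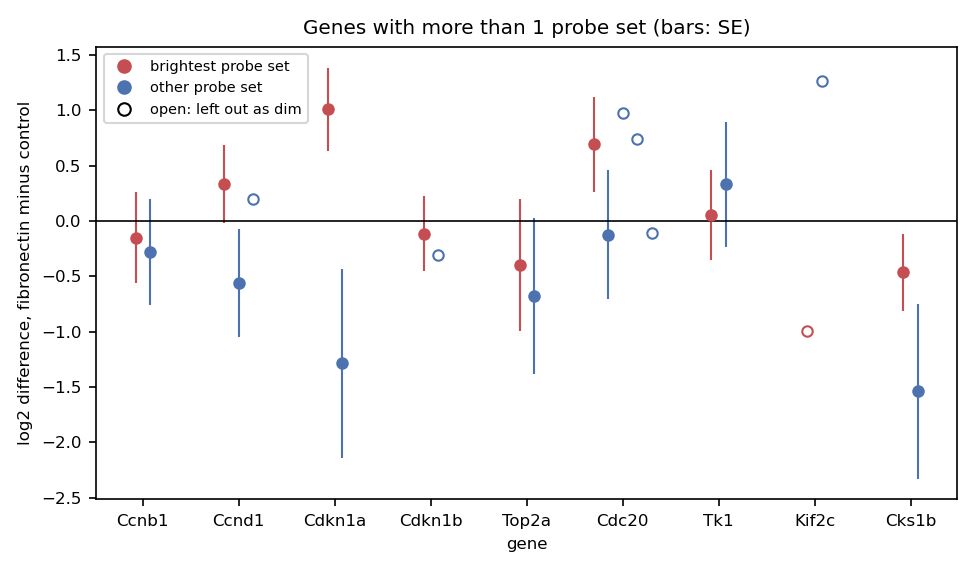
Log2 difference, fibronectin minus control (vertical axis), for each probe set of the 9 genes with more than 1, with limma's SE as bars for tested probe sets. The brightest probe set (red) and the others (blue) had opposite signs for Cdkn1a, at 1.01 and -1.29, and open points were left out as dim.

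The promoter motifs and the signals were then set side by side, as a description, since the motifs were chosen with the signals known. Of the 36 tested genes, 30 had a promoter window. Among 11 with a CHR, both fibronectin arrays exceeded both controls for 7 (Ccnb2, Birc5, Cdk1, Cdkn3, Cdc20, Cks2 and Mcm2) and lay below them for 1 (Cks1b), with a median difference of 0.43. Among 19 without a CHR, they exceeded both controls for 2 (Rfc2 and Cdkn1a) and lay below for 2, with a median of -0.09. On the deposited scale Cks2 overlapped. Most of the tested genes with a CHR were G2/M genes, so motif and role cannot be told apart here. Over all genes with a tested probe set and a window, the share above both controls was 21.4% of 644 genes with a CHR and 20.9% of 5331 without. Among 7 tested genes with an E2F form, 2 (Cdk1 and Mcm2) were above both controls and none was below, while 7 of 23 without one were above, and over all genes the share was 20.3% with and 21.0% without an E2F form. Among 22 tested genes with a CCAAT box 6 were above both controls, and among 8 without one 3 were, beside 21.8% and 20.4% of all genes.

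Other genes of the cycle, listed for their function but with earlier results of these data known, did not share 1 direction. Of 138 listed, 86 had a probe set and 68 were tested, of which 16 (23.5%) were above both controls on both fibronectin arrays and 11 (16.2%) below, against 19.2% and 19.1% of all tested probe sets. Their median difference was 0.01, and none passed the threshold (lowest Benjamini-Hochberg adjusted p in limma, 0.719). The highest without overlap were Pold1, the catalytic subunit of DNA polymerase delta (1.27, SE 0.65), Gins1, a helicase cofactor (1.25, SE 0.78), Chek1, the kinase of the replication checkpoint (1.14, SE 0.62), and Espl1, the separase that cuts cohesin (0.95, SE 0.62). Pold1 measured 6.78 and 7.28 on fibronectin and 5.23 and 6.30 on uncoated dishes, with control replicate 1 the lowest array. The lowest were Smc3, a cohesin subunit (-1.25, SE 0.38), Cdk7, the kinase that activates other cyclin-dependent kinases (-1.10, SE 0.64), Ccnl1, a cyclin linked to splicing (-0.98, SE 0.49), and Gadd45a, a growth arrest gene (-0.80, SE 0.43). Smc3 measured 6.99 and 7.16 on fibronectin and 8.47 and 8.18 on uncoated dishes, with the arrays of each group close together.

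Primary heart cultures also hold cells other than myocytes, and marker counts without overlap are given here beside the shares of all tested probe sets, 19.2% above both controls and 19.1% below. The counts cover tested markers only, whereas the sums cover every listed marker with a probe set, dim ones included. These were 11 leukocyte, 7 endothelial and 6 neural and Schwann cell markers, and all those listed of the other types. Of 17 myocyte markers, all tested and none at the floor on all 4 arrays, 4 were above both controls, 3 below and 10 overlapped, and their summed normalized intensity was 106552 and 105631 on fibronectin and 106310 and 95705 on uncoated dishes. Of 12 fibroblast markers, all tested, 6 were below both controls and 2 above, with a median difference of -0.76 and sums of 31840 and 42631 on fibronectin and 42340 and 57892 on uncoated dishes. Of 8 tested of 11 leukocyte markers, 3 were below both controls and none above, with sums of 1550 and 2133 on fibronectin and 2265 and 2945 on uncoated dishes. Smooth muscle markers (5 of 5 tested, 1 above and 1 below) summed to 4029 and 6718 on fibronectin and 3580 and 8899 on uncoated dishes. Endothelial markers (2 of 9 tested, 1 above) summed to 845 and 422 on fibronectin and 636 and 576 on uncoated dishes. Of these, Pecam1, Tie1, Vwf and Flt1 were at the floor on fibronectin replicate 2, and Vwf also on both controls. Neural and Schwann cell markers (4 of 8 tested, 2 above) summed to 769 and 1047 on fibronectin and 590 and 468 on uncoated dishes. The part of these cells in the values of the cell cycle genes was not tested.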

How the data were processed

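Gene expression was measured in 4 samples of total RNA, each on 1 Affymetrix rat array. The deposited table held 1 linear signal intensity per probe set and array. The authors' steps from image to intensity and their scaling target are not given in the sources used here. Depth does not apply to arrays, and their number, 2 per group, limits the precision.

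The 9 array control probe sets were left out and the rest were quantile normalized, raised to a floor at the 20th percentile (an intensity of 23.4) and converted to log2. The 40% of probe sets with the lowest mean (6347) were set aside as dim. The fit covered all 9519 remaining probe sets and used limma (version 3.58.1, R version 4.3.3; functions lmFit and eBayes, trend on), two-sided, with Benjamini-Hochberg adjustment. The test was checked on simulated data. Genes were named from the platform annotation, in which 12783 probe sets had 1 symbol, 312 several and 2771 none. Of the listed genes, Ccna2, Cdk2, Kif11 and Gmnn had no probe set named for them, Rrm2 and Hmgb2 shared theirs with other genes, and none of the 6 was analysed here. Array files carry no coordinates, and promoters came from RefSeq GRCr8, with the first listed start of each gene. Signal was described for each gene that differed by at least 1 without overlap, for a fixed set of cyclins, kinases, helicase subunits and inhibitors, and for genes with several tested probe sets, and the remaining genes were added by role. Members and lists were chosen with earlier results of these data known. Alternatives were the deposited scale, a median shift, no filter, a 60% filter, no floor, an offset of 50, other variance models, the replicate number as a block, leaving out each array, and the mean over a gene's probe sets.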

Additional observations from a re-analysis of the deposited data

How the results depend on the processing

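The median difference of the 36 genes stayed positive under each alternative run, and no gene passed the threshold under the other scalings, filters, floors and variance models. The labels do not say that replicate numbers pair the arrays. Same-numbered arrays deviated together across probe sets with r = 0.27, and with the replicate block 230 probe sets passed instead of 0, among them 1 of the genes, Cdkn1a (limma's Benjamini-Hochberg adjusted p = 0.0255). Without the filter, 13 of 42 genes were higher and 5 lower without overlap, against 16% and 15.7% of all probe sets. In that setting 8 of the 42 differed by at least 1 without overlap. With an offset of 50, 1 gene differed by at least 1. With the 60% filter, 9 other cell cycle genes were higher and 8 lower without overlap. The shares of all probe sets past that filter were 19.9% and 18.5%. Leaving out 1 array gave 0 to 276 probe sets past the threshold (276 without fibronectin replicate 1, 12 without control replicate 1) and 0 to 1 of the genes. It gave 12 to 21 of the 36 genes higher and 6 to 13 lower without overlap, where a lone array overlaps less often by construction. The shares of all tested probe sets were 30.4% to 38.7% higher and 30.1% to 41.6% lower. From 4 to 11 of the genes differed by at least 1 without overlap, and the medians ran from 0.029 to 0.29. Of the 68 tested other cell cycle genes, 24 to 28 were higher and 19 to 26 lower, beside the same shares. The difference of Ccng1 was 0.16 on the deposited scale and 0.11 after a median shift, and that of Cdkn1c 0.13 and 0.083. With the mean over probe sets, Ccnd1 differed by -0.0083 and Cdkn1a by -0.14. With 1 array left out, the log2 difference changed sign and ran from -0.34 to 0.041 for Ccnb1, from -0.70 to 1.14 for Ccnd2, from -0.64 to 0.011 for Cdk4, from -0.26 to 0.033 for Cdkn1b, from -0.10 to 0.049 for Cdkn1c, from -0.37 to 0.023 for Mcm3, from -0.072 to 0.51 for Mcm4. It ran from -0.52 to 0.67 for Mcm5, from -0.035 to 1.34 for Mcm6, from -0.058 to 0.18 for Mcm7, from -0.016 to 0.25 for Rrm1, from -1.17 to 0.38 for Top2a, from -0.92 to 1.40 for Mki67, from -0.33 to 0.44 for Aurkb. It ran from -0.20 to 0.29 for Tk1, from -2.37 to 0.78 for Rfc4, from -1.95 to 0.70 for Prim1, from -0.48 to 1.05 for Stmn1, from -2.57 to 0.17 for Fen1. The causes were not tested. Deposited values of fibronectin replicate 2 came in steps of 1.95, coarser than on the other arrays, so its dim values are less finely resolved.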
